A study of Mus musculus with 8 samples.

Results

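A group of 517 SMAD4-bound regions was examined that were called in mouse limb buds at embryonic day 9.5 (E9.5) but not at E10.5, and that lay inside genes and away from transcript starts. They were selected on the peak calls themselves. A region qualified when its E9.5 peak did not overlap any E10.5 peak by 1 bp, when its centre lay more than 5 kb and less than 100 kb from the nearest 5′ end of an annotated transcript, and when its centre fell within the body of any annotated gene. The 517 regions made up part of the 2073 peaks called at E9.5, of which 1686 did not overlap an E10.5 peak, and of the 8258 peaks in both lists. Being absent from the E10.5 list is therefore the selection rule and not a result, and a region without a called peak is not shown to be unbound.

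SMAD4 is the common partner of the receptor-activated SMAD proteins, which are phosphorylated when BMP, TGFβ or activin ligands bind their receptors. The complexes enter the nucleus and bind DNA at short sequences, of which the SMAD box CAGAC and GC-rich elements are the best known, and they commonly act together with other transcription factors. Sites far from promoters, often in introns, are the usual place of enhancers, which in early limb buds drive the expression of patterning genes.

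All embryos were of the NMRI strain and homozygous for an allele (Smad4 3xF/3xF, labelled Smad4Flag) that adds a 3xFLAG epitope to the endogenous SMAD4 protein. Chromatin was precipitated with the M2 antibody to FLAG and sequenced (ChIP-seq), with 2 ChIP and 2 input samples at each stage, 8 in all. At E9.5 forelimb buds with attached trunk were taken from about 80 embryos per replicate (dated E9.75 in the protocol), and at E10.5 forelimb and hindlimb buds from about 100 embryos, although a further label names the forelimb bud for every sample. The stage thus changes together with the tissue dissected, so that stage and tissue cannot be told apart. Both replicates of a stage had been merged into 1 list before deposition, hence each peak has 1 score and no value per replicate, the depth of the libraries is unknown, and each p-value describes the peaks of these lists rather than embryos.

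The 5 best-scored regions that lie in an intron are shown first, since they have the highest scores of the group. Each line gives the 300 bases around the peak centre on the forward strand of the mm9 genome, and the capitals mark the SMAD box CAGAC or its reverse complement GTCTG.
Atoh8, chr6:72166834-72167133: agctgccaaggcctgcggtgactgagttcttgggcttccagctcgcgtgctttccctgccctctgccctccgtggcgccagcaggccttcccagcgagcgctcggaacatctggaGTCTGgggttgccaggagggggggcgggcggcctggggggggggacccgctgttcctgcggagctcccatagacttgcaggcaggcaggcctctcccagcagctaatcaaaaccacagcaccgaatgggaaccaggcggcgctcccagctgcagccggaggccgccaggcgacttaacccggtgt
Wnt5b, chr6:119388613-119388912: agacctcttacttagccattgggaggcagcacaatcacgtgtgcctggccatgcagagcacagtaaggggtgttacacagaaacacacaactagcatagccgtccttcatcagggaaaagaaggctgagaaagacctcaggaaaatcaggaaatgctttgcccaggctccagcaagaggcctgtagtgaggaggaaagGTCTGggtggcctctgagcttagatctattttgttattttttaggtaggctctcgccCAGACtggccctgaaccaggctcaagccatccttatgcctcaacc
5730419I09Rik, chr6:143005777-143006076: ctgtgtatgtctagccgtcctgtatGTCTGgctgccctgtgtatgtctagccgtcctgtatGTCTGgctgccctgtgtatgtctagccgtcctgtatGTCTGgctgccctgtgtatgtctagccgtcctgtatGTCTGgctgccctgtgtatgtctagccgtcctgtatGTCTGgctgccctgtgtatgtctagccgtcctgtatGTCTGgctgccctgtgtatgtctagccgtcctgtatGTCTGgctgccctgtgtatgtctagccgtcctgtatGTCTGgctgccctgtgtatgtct
Gata4, chr14:63874687-63874986: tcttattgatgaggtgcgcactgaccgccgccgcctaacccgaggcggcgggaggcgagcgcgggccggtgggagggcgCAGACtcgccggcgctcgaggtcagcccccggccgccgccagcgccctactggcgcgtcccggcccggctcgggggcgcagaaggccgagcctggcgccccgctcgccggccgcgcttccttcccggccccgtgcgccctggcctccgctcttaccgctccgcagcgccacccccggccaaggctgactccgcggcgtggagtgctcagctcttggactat
Frmd4b, chr6:97352871-97353170: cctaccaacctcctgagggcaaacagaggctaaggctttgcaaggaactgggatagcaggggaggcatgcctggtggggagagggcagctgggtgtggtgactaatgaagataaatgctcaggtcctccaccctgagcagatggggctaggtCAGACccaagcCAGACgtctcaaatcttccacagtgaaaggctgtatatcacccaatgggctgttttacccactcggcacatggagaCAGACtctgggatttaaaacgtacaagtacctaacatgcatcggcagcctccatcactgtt

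The windows differ widely in composition. Those of Atoh8 and Gata4 hold 1 SMAD box each in sequence of 68.0% and 76.3% GC, together with the GC-rich SMAD form GGCGCC. The window of Wnt5b holds 2 SMAD boxes and that of Frmd4b 3. The window of 5730419I09Rik consists of a repeat in which the SMAD box recurs every 36 bases. It holds 8 copies, with all 7 neighbouring pairs at this spacing.

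The palindrome GTCTAGAC, an inverted pair of the core GTCT, was found in 7 regions. It is shown in capitals within 60 bases, because no flanking window contained it. All 7 regions were intronic, and their scores ranged from 35.6 in Plb1 to 101 in Zmynd8.
Zmynd8, chr2:165694431-165694490: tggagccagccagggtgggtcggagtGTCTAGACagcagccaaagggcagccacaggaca
Serp2, chr14:76936897-76936956: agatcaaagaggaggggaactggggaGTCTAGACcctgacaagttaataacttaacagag
Rbfox1, chr16:6889503-6889562: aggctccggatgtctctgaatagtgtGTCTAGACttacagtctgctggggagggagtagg
Gm16154, chr10:94066825-94066884: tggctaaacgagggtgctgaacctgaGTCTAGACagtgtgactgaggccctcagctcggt
2810055G20Rik, chr16:77421952-77422011: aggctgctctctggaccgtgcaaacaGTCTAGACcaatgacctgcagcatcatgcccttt
Taf1b, chr12:25238091-25238150: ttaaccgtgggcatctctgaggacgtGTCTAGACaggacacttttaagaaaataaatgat
Plb1, chr5:32560192-32560251: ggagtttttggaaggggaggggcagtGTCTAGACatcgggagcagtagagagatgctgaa

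A further sequence is shown because it lies in a gene of the pathway itself. The window of Pmepa1, which encodes a membrane protein that binds receptor-activated SMADs and dampens TGFβ signals, holds a single SMAD box.
Pmepa1, chr2:173079191-173079490: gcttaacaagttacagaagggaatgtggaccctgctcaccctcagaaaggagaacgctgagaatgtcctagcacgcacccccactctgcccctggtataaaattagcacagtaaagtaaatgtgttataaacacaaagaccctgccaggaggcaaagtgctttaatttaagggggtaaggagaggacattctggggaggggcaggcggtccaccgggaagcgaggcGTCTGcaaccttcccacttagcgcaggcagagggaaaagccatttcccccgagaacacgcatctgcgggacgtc

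The peak scores, which the authors assigned in merging the replicates and whose unit the list does not name, lay within a narrow range. The median score of the 517 regions was 53.4, with quartiles of 49.0 and 61.0, and the range was 31.6 to 150.3. Only 8 regions (1.55%, 95% Wilson interval 0.786% to 3.02%) scored 100 or more, beside 14 of the 520 E9.5-only distal peaks between genes (2.69%) and 10.03% of all E9.5 peaks, and 65 (12.6%) belonged to the best-scored quartile of the E9.5 list. The highest score was that of the peak chr6:72166435-72167532 in intron 2 of Atoh8 (ENSMUSG00000037621), a basic helix-loop-helix transcription factor, and it was rank 98 of the 2073 E9.5 peaks. Its centre lay 18.6 kb downstream of the Atoh8 start, and the nearest E10.5 peak was 117.9 kb away.

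The other best-scored regions lay in hosts of varied function. In Wnt5b, which encodes a secreted WNT ligand, the peak chr6:119387669-119389857 (score 132) lay in the last of 4 introns, 10.6 kb downstream of an internal start of the gene. The peak chr14:63873919-63875754 in Gata4, a zinc finger factor of heart, body wall and gut development, had a score of 119. It was separated by 2.18 kb from an E10.5 peak that scored 45.6. Pmepa1 held the peak chr2:173077852-173080829 (score 94.1) in its first intron, 19.0 kb from the nearest E10.5 peak. The list of the 15 best-scored regions also included Ext2 (score 97.3), a polymerase of heparan sulphate, Hrh2 (92.0), the histamine H2 receptor, and Loxl1 (88.7), an enzyme that cross-links elastin.

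Scores above 100 were also reached in Frmd4b, a scaffold protein (107), in Urb2, a factor of ribosome biogenesis (105), in Zmynd8, a chromatin reader (101), and in Chid1 (100.4). Serp2, a small protein of the endoplasmic reticulum, followed with 98.8, the transporter gene Slc10a7 with 91.6 and the sorting protein gene Pacs2 with 89.5. The region in 5730419I09Rik scored 128. Of the 15 regions, 14 had their centre in an intron and that of Slc10a7 fell into an untranslated region (UTR). The plot of score against distance shows that these regions stand above a dense band, with quartiles of 49.0 and 61.0.

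**Figure D1:**
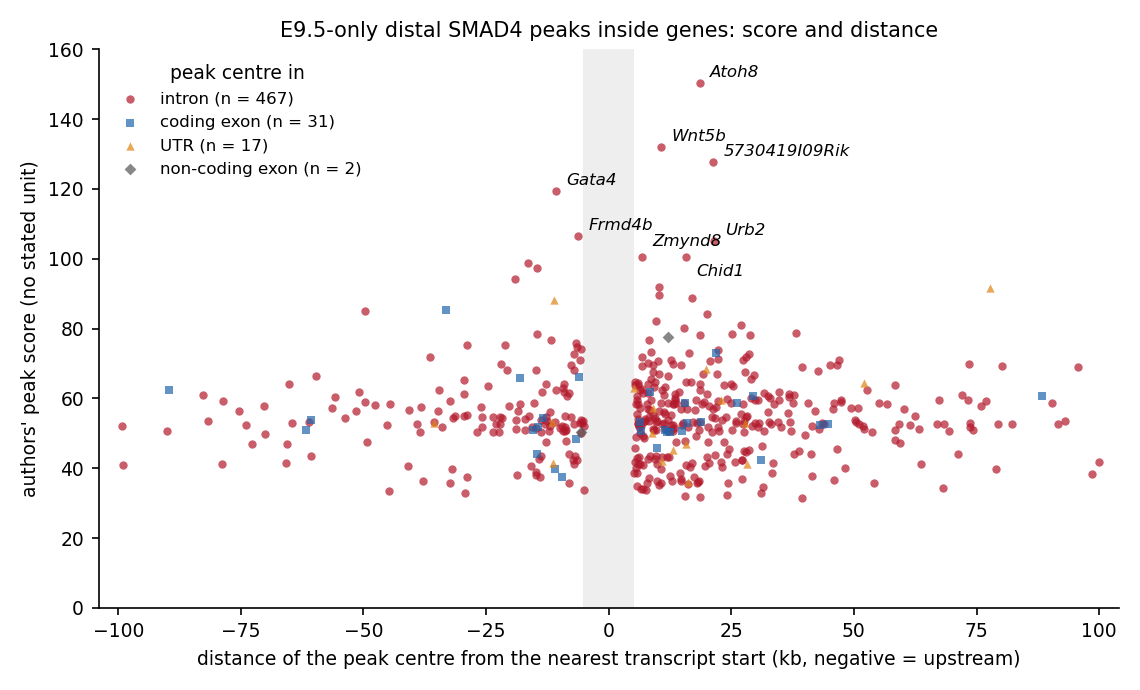
Score of each of the 517 regions (vertical axis, no stated unit) against the distance of its centre from the nearest transcript start in kb, negative upstream, with symbols for the feature at the centre and the 5 kb around starts that the rule leaves out in grey. The 8 named regions score 100.4 to 150.3, whereas the median is 53.4.

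Score was hardly related to the other properties of a region. Across the 517 regions, Spearman's rho of the score was -0.0195 with peak width, 0.103 with GC content and 0.0653 with the number of SMAD boxes, each given as a description since peaks of 1 list share their libraries. The median width was 1044 bp, with quartiles of 756 and 1547 bp. To determine whether lying inside a gene goes along with other peak properties, the regions were compared with the 520 E9.5-only distal peaks between genes. The median width was 1080 bp in these, the median score 53.9 and the median GC content 52.0%, against 51.7% inside genes. The share of regions above the pooled median was 49.3% against 50.6% for width, 48.7% against 51.2% for score and 47.4% against 52.1% for GC content (two-sided Fisher's exact tests, adjusted p 0.803, 0.803 and 0.545). None of these differences between intragenic and intergenic distal regions of E9.5 passed the threshold.

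Within genes, most of the regions were intronic. Introns held the peak centre of 467 regions (90.3%, interval 87.5% to 92.6%), coding exons that of 31 (6.00%), UTRs that of 17 (3.29%) and exons of non-coding transcripts that of 2. The 1408 E10.5-only distal peaks inside genes, which meet the same rule in the other list, were intronic in 84.6%. The share of intronic regions was 5.74 percentage points higher at E9.5 (odds ratio 1.70 with an adjusted p of 0.00520, Fisher's exact test, two-sided). This difference was not called when the limit was raised to 10 kb from a start (odds ratio 1.55, adjusted p 0.0568), when the whole peak had to lie inside the gene (1.48, 0.166) or in peaks of the middle tercile of pooled widths (1.65, 0.354). The E10.5-only peaks were wider, with a median of 2947 bp, and beyond the tercile of width the part of width in the difference was not tested. The regions also lay in longer hosts, with medians per peak of 123 and 94.2 kb, and in longer introns (32.0 and 17.7 kb). The part of these lengths was not tested. The 45 shared distal peaks inside genes of the E9.5 list were intronic in 91.1% (interval 79.3% to 96.5%).

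The other features did not pass the threshold between the stages. Coding exons held 8.95% of the E10.5-only distal peaks (odds ratio 0.649, adjusted p 0.0642) and UTRs 5.18% (odds ratio 0.622, adjusted p 0.110), each compared by a two-sided Fisher's exact test. Of the intronic regions, 127 (27.2%) lay in the first intron of the host transcript, against 25.1% at E10.5 (adjusted p 0.382, Fisher's exact test). The nearest start belonged to the host gene in 352 regions (68.1%, interval 63.9% to 72.0%) and in 62.3% of the E10.5-only peaks (odds ratio 1.29, adjusted p 0.0533, Fisher's exact test). Some of these results passed the threshold under other settings. Coding exons and UTRs were less frequent than at E10.5 with a limit of 2.5 kb (adjusted p 0.0114 for each). A start of the host was more often nearest with a limit of 10 kb (odds ratio 1.49, adjusted p 0.00808), with protein-coding starts alone (1.36, 0.0130), with no E10.5 peak within 1 kb (1.29, 0.0459) and when sharing required a reciprocal overlap of 50% (1.29, 0.0484). The bar chart of positions inside genes gives these shares beside those of the 45 shared distal peaks inside genes.

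**Figure D2:**
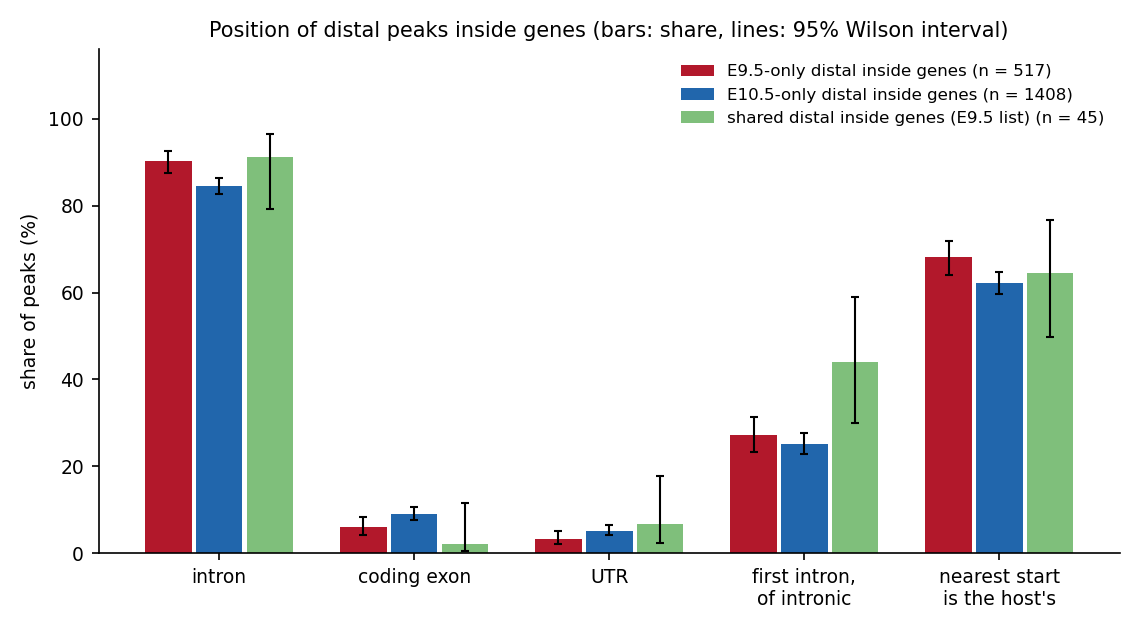
Share of peaks in percent (bars) with 95% Wilson intervals (lines) for the feature at the centre, for the first intron among intronic peaks (467, 1191 and 41 peaks) and for a nearest start that is the host's own. Intronic centres were found in 90.3% of the E9.5-only and 84.6% of the E10.5-only distal peaks inside genes.

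The regions spread over the body of their hosts. Relative to the length of the host, 153 (29.6%) had their centre in the portion nearest the 5′ end when the gene was cut into 3 equal portions, and 186 (36.0%) in the portion nearest the 3′ end. The median distance to the nearest start was 18.9 kb, with quartiles of 10.6 and 34.7 kb, and 356 regions (68.9%) lay downstream of it. Coding exons with a peak centre included those of Fat2 (chr11:55100868-55101688, score 72.9), an atypical cadherin, of Trpm3 (60.8), an ion channel, and of Lama1 (60.8), a laminin chain. The best-scored coding exon region was in 2010111I01Rik, with a score of 85.3.

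Sequences that transcription factors recognise were searched next on both strands of the 300 bases around each centre. For SMADs these were CAGAC, the longer CAGACC that contains it, the palindrome GTCTAGAC, the GC-rich form GGCGCC and the BMP bipartite element. For other factors they were TGACTGAC for PBX with PKNOX, TGACAG for MEIS and PKNOX, TGANTCA for AP-1, CAGCTG for E-box factors, TAATTA for homeodomain factors, TGTTTAC for forkhead factors, AGATAA for GATA factors, GGAATG for TEAD, CTTTGA for TCF and LEF, ACAATG for SOX and TGTGGT for RUNX factors. The end of TGACAG can overlap the start of CAGAC. Each region was compared with its own window 2 kb to 1 side, which reached into the peak for 6 regions (1.16%). Of the 16 sequences, 4 differed between centre and flank after adjustment (exact McNemar tests, 9 with an unadjusted p under 0.05). TGACAG was not among the 4, with 25.1% at the centre and 19.7% in the flanks (adjusted p 0.0739, exact McNemar test). All E9.5 peaks held it in 20.2%.

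The SMAD box and the E-box were more frequent at the centre. CAGAC was present in 335 regions (64.8%, interval 60.6% to 68.8%) and in 275 windows of the flanks (53.2%), which is 1.22 times as often (adjusted p 0.00214, exact McNemar test). In all E9.5 peaks its share was 60.6% and in all E10.5 peaks 53.2%. CAGCTG, the form of the E-box bound by many basic helix-loop-helix factors, was present in 124 regions (23.98%, interval 20.5% to 27.8%) and in 75 windows of the flanks (14.5%), which is 1.65 times as often (adjusted p 0.00164, exact McNemar test). All E9.5 peaks held it in 22.0% and all E10.5 peaks in 18.7%. The centres were also richer in GC than the flanks, with medians of 51.7% and 45.3%, and the part of base composition in both differences was not tested.

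The homeodomain and GATA sequences were less frequent at the centre than beside it. TAATTA was present in 20 regions (3.87%) and 42 flanking windows (8.12%, exact McNemar test, adjusted p 0.0249), and AGATAA in 58 (11.2%) and 90 (17.4%, adjusted p 0.0238, exact McNemar test). The part of the GC content was not tested here either. Other sequences rich in A and T did not pass the threshold, with 2.71% at the centre and 5.61% in the flanks for TGTTTAC (adjusted p 0.0535), 12.0% and 14.9% for ACAATG (0.267) and 17.99% and 19.1% for CTTTGA (0.843), by exact McNemar tests. All E9.5 peaks held TAATTA in 2.94% and AGATAA in 8.68% of windows. The shares at the centre were 0.476 and 0.644 times those of the flanks. Neither was called with a score of 50 or more (adjusted p 0.0732 and 0.1) or with windows of 200 bases (adjusted p 0.133 and 0.227, exact McNemar tests). The call was also lost for both beyond 10 kb (0.142 and 0.0516), for TAATTA in windows of 500 bases (0.0513) and for AGATAA with flanks at 5 kb (0.128). Under these settings the ratios were 0.452 to 0.613 for TAATTA and 0.627 to 0.744 for AGATAA, all in the same direction.

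The other SMAD sequences missed the threshold after adjustment. GGCGCC was present in 21 regions (4.06%) and 8 flanks (1.55%, adjusted p 0.0551), CAGACC in 106 (20.5%) and 81 (15.7%, adjusted p 0.0843), by exact McNemar tests. GGCGCC passed it under 5 of the alternatives, among them flanks at 5 kb (adjusted p 0.00728), and CAGACC under 2, beyond 2.5 kb (0.0232) and without tandem repeat windows (0.0459). The palindrome GTCTAGAC was present in 7 regions (1.35%, interval 0.657% to 2.77%) and 0 flanking windows, with an exact McNemar p of 0.0156 and an adjusted p of 0.05, at the limit and not below it. It was also found in 1.35% of the intergenic distal peaks of E9.5, in 1.21% of all E9.5 peaks and in 0.420% of all E10.5 peaks. The BMP bipartite element, in which GGCGNC or GACGNC is followed by GTCT after 5 bases, was found in 0 regions (upper limit of the interval 0.738%), in 0.338% of all E9.5 peaks and in 0.372% of all E10.5 peaks.

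**Figure D3:**
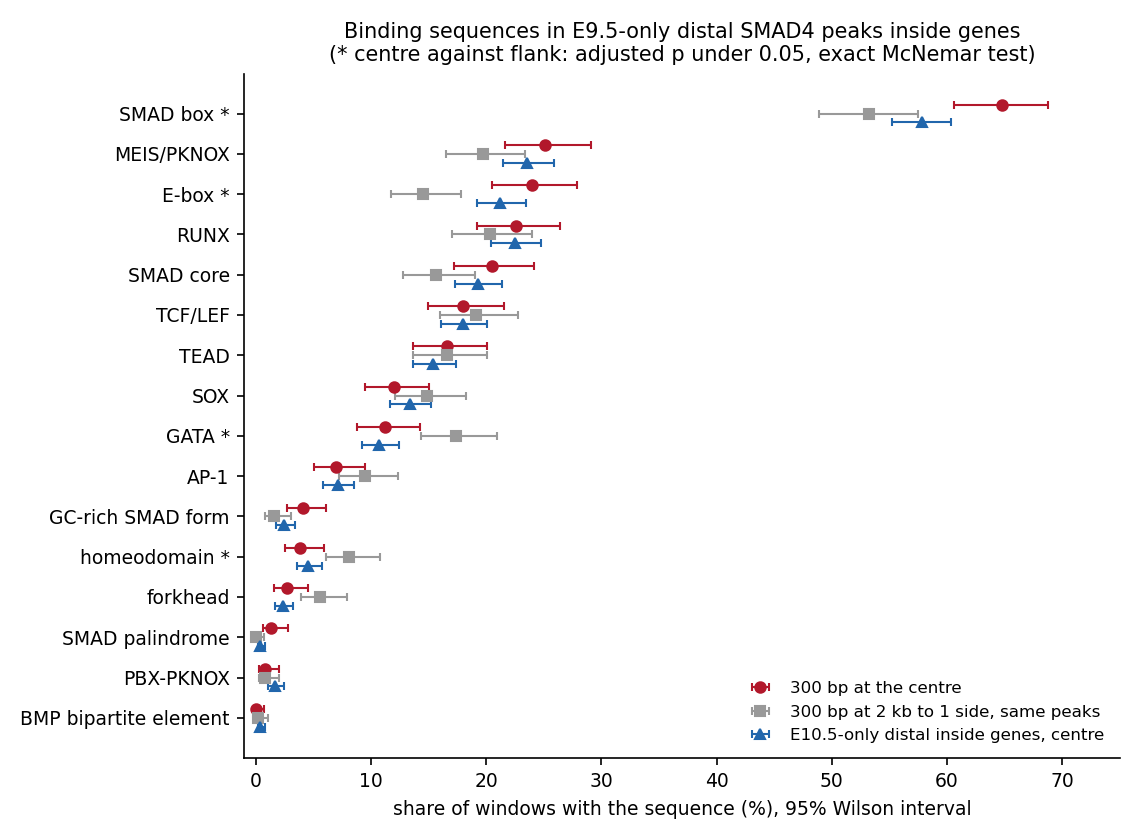
Share of 300 bp windows with each binding sequence in percent, with 95% Wilson intervals, for the 517 regions at their centre (circles), for their flanking windows (squares) and for the 1408 E10.5-only distal peaks inside genes (triangles). The SMAD box, at 64.8%, and the E-box, at 23.98%, exceed their flanks, whereas the homeodomain and GATA sequences lie below theirs.

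No sequence passed the threshold against other peaks. Compared with the E9.5-only distal peaks between genes, 0 of 16 sequences differed (two-sided Fisher's exact tests, 0 also with an unadjusted p under 0.05), and CAGAC was present in 66.2% of those. Compared with the E10.5-only distal peaks inside genes, 0 of 16 differed after adjustment and 2 had an unadjusted p under 0.05. These were CAGAC, present in 57.8% at E10.5 (odds ratio 1.34, Fisher's exact test, p 0.00638, adjusted p 0.102), and GTCTAGAC, present in 0.355% (p 0.0209, adjusted p 0.167, Fisher's exact test). The CAGAC difference was called when distances were taken to protein-coding starts alone (odds ratio 1.398, adjusted p 0.0277) and with a limit of 2.5 kb (odds ratio 1.36, adjusted p 0.0378). Under the other 12 settings that gave a value it was not called. Among these were pooling over GC quintiles (odds ratio 1.33), the middle width tercile (1.49) and a limit of 10 kb (1.28).

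The profile around the centre gives the share by distance. In bins of 100 bp the share with a SMAD box was 26.1% to 33.5% in the 4 bins within 200 bp of the centre, and 18.2% to 27.9% with a mean of 22.3% in the 40 bins beyond 1 kb, so that the ranges overlap. Of the bins from 200 to 500 bp, the share was still 26.7% in the highest upstream bin and 27.3% in the highest downstream bin. For the E10.5-only distal peaks inside genes the central bins held it in 25.6% to 27.3% and those beyond 1 kb in 24.02% on average. The mean GC content fell from 51.6% in the highest central bin to 44.8% beyond 1 kb in the regions, and from 52.2% to 47.6% at E10.5. The lists give no summits, and as the E10.5 peaks are wider, a stage difference in these profiles and one in how well the centre marks the bound site cannot be told apart.

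**Figure D4:**
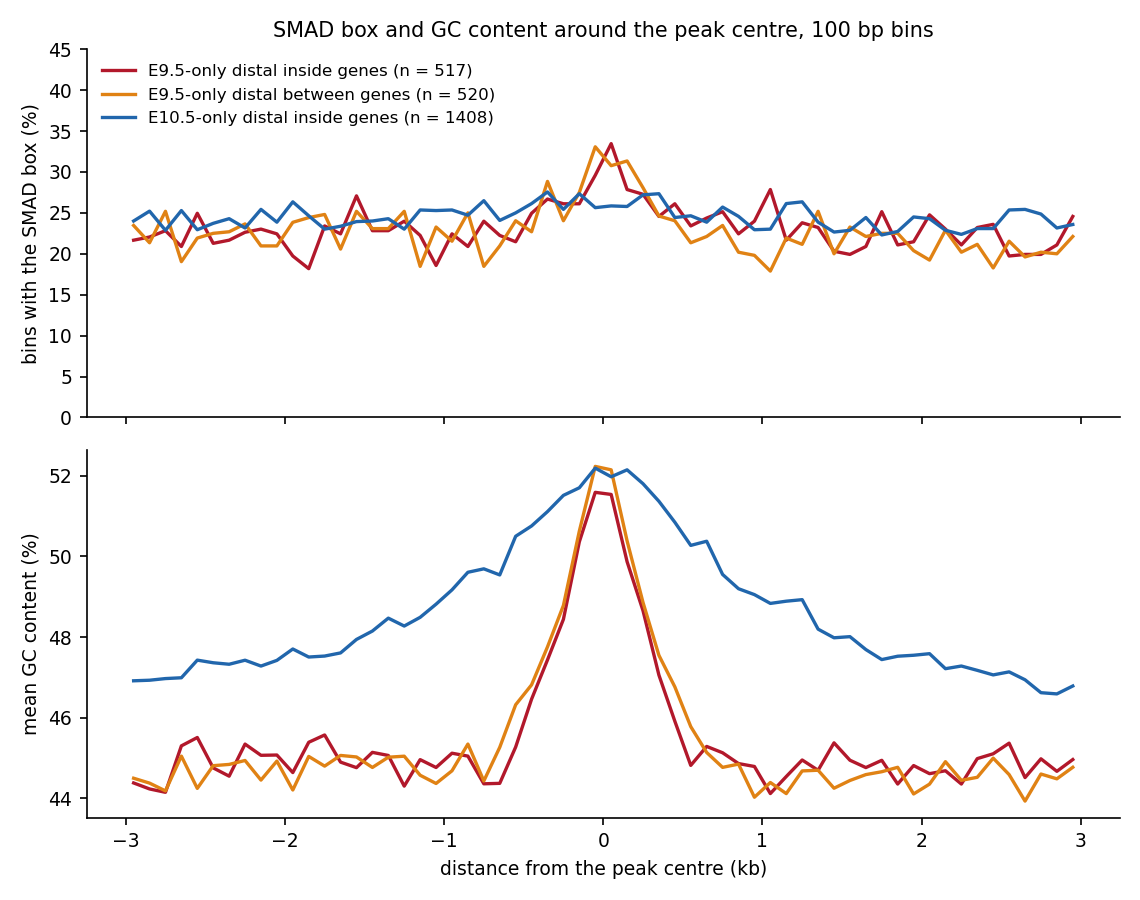
Share of 100 bp bins with a SMAD box (upper panel, percent) and mean GC content (lower panel, percent) against the distance from the peak centre in kb, for the 517 regions, the 520 E9.5-only distal peaks between genes and the 1408 E10.5-only distal peaks inside genes. In both E9.5 curves the share is highest in a bin next to the centre, at 33.5% in the regions, and these curves as well as their GC content are raised over several bins on either side.

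Among the regions themselves the share with a SMAD box is given as a description. The box was present in 61.5%, 69.0%, 63.6% and 65.1% of the 4 score quartiles from the lowest to the highest, with intervals that overlap. In the width quartiles the shares were 66.4%, 58.6%, 64.3% and 69.8% from narrow to wide, again with overlapping intervals. In the GC terciles the shares were 62.1%, 65.3% and 67.3%, and 64.7% of the intronic, 64.5% of the coding exon and 70.6% of the 17 UTR regions held it. Altogether 172 regions had 1 copy, 102 had 2, 37 had 3 and 24 had more, while 182 had none.

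A few regions held arrays of the SMAD box in their windows. The windows in Acap2 and Chid1 held 17 and 13 copies of CAGAC, with a commonest spacing of 18 and 16 bases. Many copies were not particular to the group. At least 5 were present in 2.71% of the regions, 2.12% of the intergenic distal peaks of E9.5 and 2.17% of all E9.5 peaks. The share was 11.1% in the 45 shared distal peaks inside genes and 0.852% in the E10.5-only ones. A tandem repeat of at least 24 bp, made of units of 1 to 6 bases, was present in the windows of 11 regions (2.13%, interval 1.19% to 3.77%), among them Gpc6 and Grik4. Longer units, such as that of 5730419I09Rik, are not counted in this measure. It was chosen after the sequences had been seen and is given without a test. The shared distal peaks inside genes carried such a repeat in 12 of 45 cases (26.7%, interval 15.97% to 41.0%), including those in Hhat, Nfib and Mef2c, and the E10.5-only ones in 5.68% of cases. The intergenic distal peaks of E9.5 carried one in 4.04%.

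The host genes were then examined. The regions fell into 476 genes when 1 host was taken per region, and 493 regions (95.4%) lay inside a protein-coding gene. Counting every protein-coding gene whose body holds a centre, 465 genes, or 2.08% of the 22350 annotated on these chromosomes, held a region. The rule favours long genes, since a centre must lie inside a gene and more than 5 kb from a start. The median length was 119 kb in these genes and 15.4 kb over all protein-coding genes. It was 79.4 kb in genes that held an E10.5-only distal peak, which meets the same rule, and the cause of this difference was not tested. Of genes from 10 to 30 kb, 0.830% held a region, of genes from 30 to 100 kb 3.01%, of genes from 100 to 300 kb 9.03% and of longer genes 17.6%.

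Many of the hosts also held an E10.5 peak elsewhere. This applied to 188 of the 465 genes (40.4%), whereas 15.9% of all protein-coding genes held the centre of any E10.5 peak. Longer genes held such a peak more often, with 35.5% of all genes from 100 to 300 kb and 42.2% of those of 300 kb or more. In these length classes, 44.97% and 72.0% of the genes with a region did so, and in the class from 10 to 30 kb 5.88% did, against 15.1% of all genes. An E10.5-only distal peak was present in 114 of the 465 genes (24.5%), which is 10.3% of the 1110 genes that held such a peak. Over all protein-coding genes the share was 4.97%. It was 3.37% for genes from 10 to 30 kb, where 1 of 51 genes with a region held one. From 30 to 100 kb it was 8.30%, where 17 of 149 genes with a region did. From 100 to 300 kb it was 18.3%, where 45 of 169 did, and for longer genes 25.4%, where 51 of 93 did. No test was made, since the rule requires the absence of an overlapping E10.5 peak.

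Most hosts held a single region. There were 442 hosts with 1 region, 28 with 2, 5 with 3 and 1 with 4. The most regions were held by Csmd2, which encodes a large membrane protein with CUB and sushi domains. Its 4 peaks lay in introns, at 15.5, 18.8, 95.5 and 369 kb from the 5′ end, with scores of 80.1, 64.0, 35.8 and 36.3. The E10.5 list had 3 peaks in Csmd2, at 135, 442 and 473 kb.

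In Cacna1c, which encodes a subunit of the L-type calcium channel, the 3 regions clustered near the 3′ end at 472, 522 and 544 kb (scores 50.3, 59.2 and 62.4), the last of them in a coding exon. The E9.5 list also had peaks in Cacna1c outside this group. The peak at 188 kb (score 52.5) was E9.5-only but did not meet the distance rule, and that at 331 kb (50.5) overlapped an E10.5 peak. The 7 E10.5 peaks of this gene were placed from 87.7 to 593 kb. The 3 regions of Accn1, an acid-sensing ion channel, also lay within 69.5 kb of each other (scores 47.5 to 62.4) and between E10.5 peaks at 816 and 921 kb. A further E9.5 peak of Accn1, at 63.9 kb, overlapped an E10.5 peak. In Prkce, which encodes protein kinase C epsilon, the regions were at 285, 301 and 391 kb (scores 57.6, 54.6 and 54.4), and both E10.5 peaks lay nearer the start, at 61.9 and 125 kb. In Bcas3 the regions at 39.6, 101 and 216 kb had scores of 61.0, 76.8 and 56.1. Msi2, an RNA-binding protein gene, held its regions at 115, 182 and 312 kb (scores 43.4, 63.9 and 75.3) and 1 E10.5 peak at 264 kb.

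**Figure D5:**
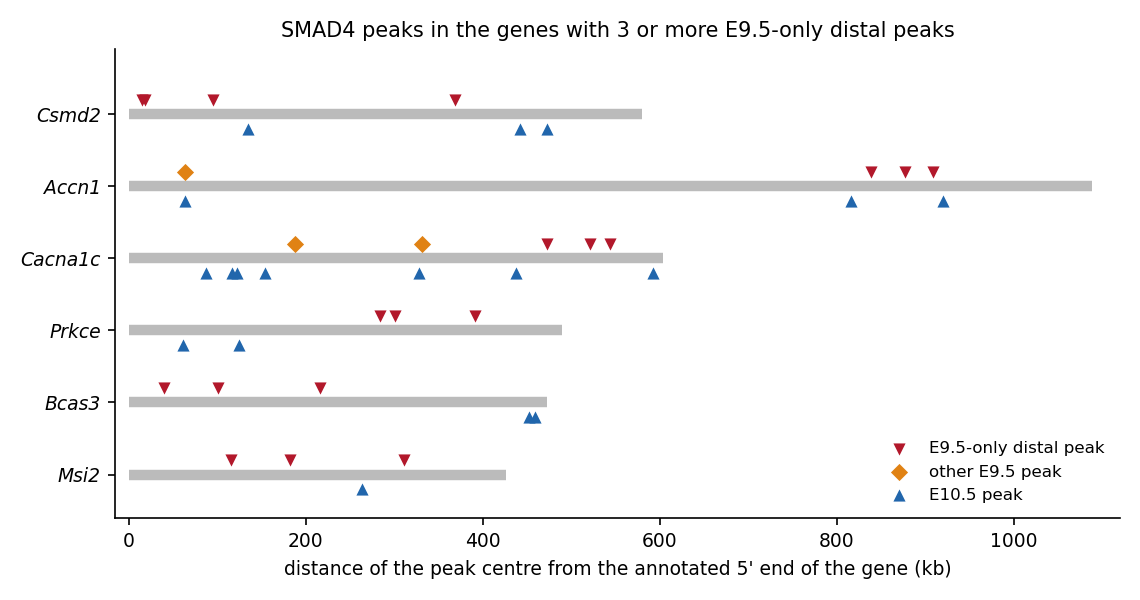
Peak centres in the 6 genes with 3 or more of the regions, as distance from the annotated 5′ end in kb, with the gene body as a grey bar, E9.5 peaks above and E10.5 peaks below. In Csmd2, Prkce, Bcas3 and Msi2 every E9.5 peak is an E9.5-only distal one.

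Pairs of regions were also found close together. In Hrh2 the peaks chr13:54294446-54295274 (score 54.1) and chr13:54297477-54298226 (92.0) were spaced by 2.99 kb in the same intron. The spacing was 3.96 kb in Ano10 and 20.5 kb in Creb3l2, the latter with scores of 81.0 and 41.2. These neighbours had been called as separate peaks.

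Genes of signalling pathways and cell types were looked up in lists that comprise 457 genes, of which 454 were matched to the annotation. In total, 27 of the matched genes (5.95%) held a region, beside 2.08% of all protein-coding genes. The lists differ in gene length and were drawn up with earlier results of these peaks known, and no test was made. In the BMP and TGFβ pathway 2 of 62 genes (3.23%) held a region, near the 2.08% of all protein-coding genes. The 2 hosts were Pmepa1 and Skil. The latter encodes the SMAD corepressor SnoN and carried its peak (chr3:31018586-31019408, score 59.5) in a UTR. The nearest E10.5 peak (chr3:30991944-30995045, score 2155) lay 23.5 kb away, over the annotated 5′ end of Skil. No ligand, receptor or SMAD gene of this list held a region, which at a share near that of all genes is not read as a result. An E10.5 peak was held by 21 of the 62 genes (33.9%), beside 15.9% of all protein-coding genes.

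Limb patterning transcription factors held a region in 3 of 59 cases (5.08%), beside 2.08% of all protein-coding genes, and no test was made. The rule favours long genes, and Pbx3, Pknox2 and Runx2, the 3 hosts, are 202, 256 and 319 kb long. An E10.5 peak was held by 27 of the 59 genes (45.8%), beside 15.9% of all protein-coding genes. Pknox2, a TALE homeodomain gene, had the best-scored region (chr9:36782997-36785665, score 85.1), only 821 bp from an E10.5 peak that scored 37.3. The peak in Pbx3, another TALE gene and a partner of HOX proteins, scored 72.0, and that in Runx2, which directs osteoblast differentiation, 34.7.

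The lists of other signalling pathways gave 1 or 2 hosts each, where 2.08% of all protein-coding genes held a region. In the WNT list 1 of 46 genes held a region, namely the receptor gene Fzd6 (score 37.5), and Wnt5b was not on this list. The FGF list gave 2 of 20 genes. One is Il17rd, an antagonist of FGF receptors, with the peak chr14:27857309-27858544 (score 60.6) in its first intron at 5.74 kb. The other is Fgfr2, with scores of 58.5 and 78.4, but this gene is annotated over 3009 kb, and the nearest starts to its peaks are those of Htra1 and Ctbp2. In the hedgehog list, Boc, a co-receptor of hedgehog ligands (score 60.4), and Hhat, which acylates these ligands (49.0), were 2 of 19. Notch2 (66.3) was the single gene of 25 in the Notch list, and Rarb, a retinoic acid receptor (52.9), that of 21 in the retinoic acid list. Of 19 cholesterol synthesis enzymes, Pmvk, the phosphomevalonate kinase, held a region, with a score of 57.1 and 5 SMAD boxes in its window.

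Long genes of cell contact and guidance were also hosts. Of 56 genes of cell adhesion and extracellular matrix, 7 (12.5%) held one, and the median length of these 56 genes was 117 kb. Of all protein-coding genes from 100 to 300 kb, 9.03% held a region. The laminin chain gene Lama2 had the best score (chr10:27307917-27308556, 72.7), followed by the integrin gene Itga9 (61.6), Lama1 (60.8), the cadherin gene Cdh13 (56.3), the glypican gene Gpc6 (55.9), the integrin gene Itga6 (51.5) and Tnc, which encodes tenascin C (50.3). Of 46 axon guidance genes with a median length of 154 kb, 4 (8.70%) held a region. These were Slit3, a secreted repellent (67.6), the netrin receptor gene Unc5d (53.0), Sema5a, a semaphorin (51.0), and Epha4, an ephrin receptor (36.0).

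Among markers of tissues that the trunk or the limb bud can contribute, 3 of 89 (3.37%) held a region, beside the 2.08% of all protein-coding genes. Pax3, a factor of somites and muscle precursors, held a region with a score of 36.9 (1 of 19 markers), Fli1, a factor of endothelium, 55.0 (1 of 19), and Gata4 119 (1 of 13 markers of heart and body wall). The markers of neural tube and neural crest (17), of ectoderm and apical ridge (14) and of endoderm (7) had none. Whether the peaks in Gata4, Pax3 and Fli1 come from limb bud or from trunk cells cannot be told apart here.

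Finally, the regions were related to the E10.5 peaks nearby. The median gap to the nearest E10.5 peak was 84.2 kb, with quartiles of 33.6 and 178 kb, and 288 regions (55.7%) had an E10.5 peak within 100 kb. Other E9.5-only peaks were similar, with 55.0% of the distal peaks between genes and 56.8% of those near a start. Within 5 kb the shares of these peaks were 2.12% and 4.97%. Among the regions, the gap was at most 5 kb for 12 (2.32%) and at most 1 kb for 2. The shortest was that of Pacs2 (chr12:114261735-114264380), with 680 bp to an E10.5 peak of 58.2. In the region of Odz4, a teneurin gene, the gap was 1.31 kb, with a score of 78.2 at E9.5 and 40.5 for the E10.5 peak. At the limits of the rule, the members nearest the 5 kb border were 2310030N02Rik at 5029 bp (score 52.0) and, both at 5063 bp, Npas2 (33.7) and Shf (62.8), and the intragenic E9.5-only peaks just outside it were Sh3gl3 at 4945 bp (52.7) and C8b at 4882 bp (55.6). At the far border, Tshz2 at 99925 bp (41.7) lay inside and 2610021K21Rik at 101092 bp (65.8) outside. The smallest overlap that excluded an intragenic distal peak was 394 bp, in Me1 (score 55.1).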

How the data were processed

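SMAD4-3xFLAG ChIP-seq of E9.5 and E10.5 limb buds was analysed from 1 deposited peak list per stage, 2073 and 6185 peaks. The authors aligned reads to mm9 with Bowtie 1.1.0, called peaks per replicate against input with MACS 1.4 and combined the replicates with MSPC. The deposited score follows the best MACS p-value of the replicates according to the methods, but the files do not name its unit, and it was used only as a score. The members and gene lists were chosen with earlier results of these data known.

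Peak centres were annotated with GENCODE vM1 (mm9). Overlap meant 1 bp or more. A centre was classed as coding exon, UTR, non-coding exon or intron, in this order, over all host transcripts, and introns were numbered in the longest. Sequences were read from the mm9 genome, in windows of 300 bp. Shares were compared by two-sided Fisher's exact tests, centres with flanks by exact McNemar tests, and medians by Fisher's exact tests of values above the pooled median, with Benjamini-Hochberg adjustment within each family and a threshold of 0.05. Wilson intervals (95%) cover counting error only. The named genes are the 15 best-scored members, those with the palindrome or bipartite element, list genes, hosts of 2 or more members and the members and peaks at the limits of the rule. Other names, such as Acap2, Fat2, Trpm3 and 2010111I01Rik, were chosen after their values were seen. A further result on a single region is not reported here. Scripts used Python 3.11.15, NumPy 2.4.6, pandas 2.3.3, SciPy 1.17.1, statsmodels 0.14.6 and Matplotlib 3.10.9, and were checked on simulated data. The closing section gives the effect of 16 alternative settings.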

Additional observations from a re-analysis of the deposited data

How the results depend on the processing

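Over 19 results and 16 settings, 165 of the 201 recomputed values that have a direction kept it and their side of the threshold. The CAGAC excess over the flanks was recomputed under 13 of the settings, which include neither the pooling over GC quintiles nor the width terciles, and was called in all but the 8 regions with a score of 100 or more (ratio 1.4, adjusted p 1, exact McNemar test), and the CAGCTG excess in all 12 settings that gave a value. The number of sequences past the threshold against the flanks was 4 and became 0 with a score of 100 or more, 2 with a score of 50 or more, 9 beyond 2.5 kb, 2 beyond 10 kb, 3 in 200 bp windows, 5 or 6 under 4 other definitions of members and 8 without windows holding a tandem repeat, an alternative chosen after seeing the data. With a score of 100 or more, 8 members were left, and the direction turned for the first intron (odds ratio 0.426), width against intergenic peaks (17.5), GC content against E10.5 (3.43) and AGATAA against the flanks (ratio 2). Values for introns, CAGCTG and TAATTA could not be computed there. CAGAC against intergenic peaks, not called, turned to odds ratios of 1.03 with a score of 50 or more and 1.06 in 500 bp windows. CAGAC against E10.5, not called in the main setting (1.34), passed the threshold with protein-coding starts (1.398) and beyond 2.5 kb (1.36), and under none of 12 others. GC content against E10.5 was not called in the main setting (odds ratio 0.903, adjusted p 0.329, Fisher's exact test), with medians of 51.7% in both parts. It passed beyond 2.5 kb (0.806). The intron excess lost its call beyond 10 kb (1.55), with the whole peak inside the gene (1.48) and in the middle width tercile (1.65), where UTRs (1.73) and GC content (1.01) turned direction. The cause was not tested. No paired analysis was possible because the replicates of each stage had been merged before deposition, so no replicate could be left out either. Depth is unknown, which limits any reading of a missing peak.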
